A study of Homo sapiens with 12 samples.

Results

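The ERK pathway feedback genes described here are 10 genes taken by name from the deposited count table, which lists 58735 genes: DUSP4, DUSP5, DUSP6, SPRY1, SPRY2, SPRY4, SPRED1, SPRED2, ETV4 and ETV5. All 10 are in the table, and 8 of them passed the filter on low counts that left 16646 genes for testing. ETV4 and ETV5 did not pass and are given by their counts only. The study asked how inhibition of AKT and of the histone methyltransferase EZH2 acts on castration-resistant prostate cancer, and polyA RNA was sequenced from C4.2B, a single human prostate cancer cell line of the LNCaP lineage. The 4 arms of 3 libraries each (A, B and C) were the vehicle DMSO, 0.25 μM ipatasertib (AKTi), 1 μM tazemetostat (EZH2i) and both agents (combination). EZH2i and combination cells had taken tazemetostat for 6 days beforehand while the DMSO and AKTi cells had vehicle, and all 4 arms then spent 24 hours in medium with 10% charcoal-stripped FBS, which is low in androgen. The replicates were triplicate plates of the same line, so the p-values measure the spread between plates and say nothing of other lines.

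ERK is the last kinase of the RAS, RAF, MEK and ERK cascade, which carries growth factor signals from receptors at the membrane to the nucleus. An active cascade switches on its own inhibitors. Dual-specificity phosphatases (DUSPs) remove the activating phosphates from MAP kinases, Sprouty (SPRY) proteins act between the receptor and RAF, SPRED proteins bind neurofibromin and restrain RAS, and the ETS factors ETV4 and ETV5 carry part of the transcriptional output. Their mRNAs are widely read as a gauge of ERK output, although each promoter also answers to other inputs, and no ERK phosphorylation was measured in these libraries.

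Library totals ran from 14133755 to 22276417 counts. All 10 prostate luminal markers lay between 50.02 and 3980 CPM (counts relative to library depth, scaled by TMM) in every library, and their summed level was 4365 to 4529 CPM in DMSO, 7012 to 7086 in AKTi, 7322 to 7670 in EZH2i and 9873 to 10050 in the combination. Of 12 markers of other cell types 10 never exceeded 1 CPM, CD3E and KRT5 were at 0 throughout, and the summed level was 6.953 to 11.04 in DMSO, 8.536 to 9.941 in AKTi, 22.74 to 25.45 in EZH2i and 16.25 to 20.94 in the combination, mostly VWF and COL1A1. The part of these shifts in the results below was not tested. With library size alone in place of TMM, the median log2 fold change of all genes in the combination versus DMSO moved from 0.06 to 0.26 and the genes called from 6320 higher and 5866 lower to 7574 and 4749. The same change moved the split from 5421 and 5249 to 6630 and 4193 for EZH2i versus DMSO, from 5344 and 5343 to 6544 and 4330 for the combination versus AKTi, and from 4226 and 4170 to 5104 and 3293 for EZH2i versus AKTi. For AKTi versus DMSO the balance turned, from 3429 higher and 3644 lower to 4112 and 3023 with library size alone and 4110 and 3040 with upper-quartile scaling. Upper-quartile scaling gave 7502 and 4821 for the combination and 6412 and 4374 for EZH2i, each versus DMSO.

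RefSeq promoter windows (GRCh38.p14, 250 bases before to 50 after a transcription start) were matched by symbol for 6 of the 10 genes, with 10 windows in all: 1 each for DUSP6, SPRY4 and SPRED1, 2 each for SPRY1 and SPRED2, and 3 for SPRY2. SPRY1 and SPRED2 are shown because they moved in opposite directions under AKTi. The first line of each is the sequence just upstream of the gene as the count table places it, with CG dinucleotides in capitals, at chr4:123396545-123396794 on the plus strand and chr2:65432638-65432849 on the minus strand.
SPRY1 upstream: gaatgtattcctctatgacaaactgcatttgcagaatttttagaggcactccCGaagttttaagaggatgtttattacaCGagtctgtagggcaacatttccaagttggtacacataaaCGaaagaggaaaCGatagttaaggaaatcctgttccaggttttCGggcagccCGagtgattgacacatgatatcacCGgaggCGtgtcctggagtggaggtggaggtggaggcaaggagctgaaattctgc
SPRED2 upstream: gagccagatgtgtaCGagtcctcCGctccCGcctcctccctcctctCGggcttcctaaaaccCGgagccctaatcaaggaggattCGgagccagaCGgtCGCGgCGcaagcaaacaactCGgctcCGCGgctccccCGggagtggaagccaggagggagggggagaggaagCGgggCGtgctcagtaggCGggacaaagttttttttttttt
The SPRY1 stretch held 8 CG in 250 bases and the SPRED2 stretch 17 in 212. Over the 250 bases before the start, the ratio of observed to expected CG was 0.649 for that SPRY1 start and 0.880 for the distal SPRED2 start, against a median of 0.558 over all 35116 windows. Letters of 5 binding motifs were then looked for on both strands in the full windows. The ETS letters CCGGAAG stood in 1 of the 10 windows, the second SPRY1 start, and in 10.3% of all windows. The AP-1 letters TGANTCA stood in 1 of the 10 windows, the internal SPRED2 start, at 2 places, and in 7.71% of all windows. The motif letters are in capitals in the 30 bases around each, at chr4:123398307-123398336 on the plus strand and, for the first of the SPRED2 places, chr2:65366767-65366796 on the minus strand.
SPRY1 ETS letters: tgccctccgcagCCGGAAGggggccgcggg
SPRED2 AP-1 letters: ctaaccctcggaTGACTCAtccggtacaat
None of the 10 windows held the CRE letters TGACGTCA, the FOXO letters GTAAACA or the E-box letters CACGTG, which stood in 1.85%, 3.42% and 7.26% of all windows. No other of the motifs searched overlapped the places shown, and a match is a run of letters, not a bound site.

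The genes fell into an upper and a lower range of basal expression. Per kilobase of gene length, SPRED2 was the highest in DMSO at 4.96 ± 0.383 CPM per kilobase (SD, n = 3), followed by SPRY1 at 3.13 ± 0.364 and DUSP4 at 2.60 ± 0.412. SPRED1 at 1.57 ± 0.128, DUSP5 at 1.13 ± 0.194 and SPRY2 at 0.617 ± 0.223 came next. The libraries of SPRY1 and DUSP4 overlapped, so their order is not settled, whereas every other neighbouring pair down to SPRY2 and DUSP6 was separate. DUSP6, ETV5, ETV4 and SPRY4 had 0.0890, 0.0578, 0.0488 and 0.0480 CPM per kilobase, and each overlapped its neighbour. SPRED2 stood at the 56.7th percentile of the tested genes and these last 4 between the 2.99th and the 5.26th. Vehicle-treated cells thus held SPRED2, SPRY1 and DUSP4 mRNA near the middle of the tested genes and DUSP6, SPRY4 and ETV5 mRNA near the bottom. ETV4 and ETV5 were not tested and are only placed on the scale of the tested genes. ETV4 was counted near the bottom too, but it overlaps DHX8 and the strand setting is not given, so its level is not settled.

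**Figure D1:**
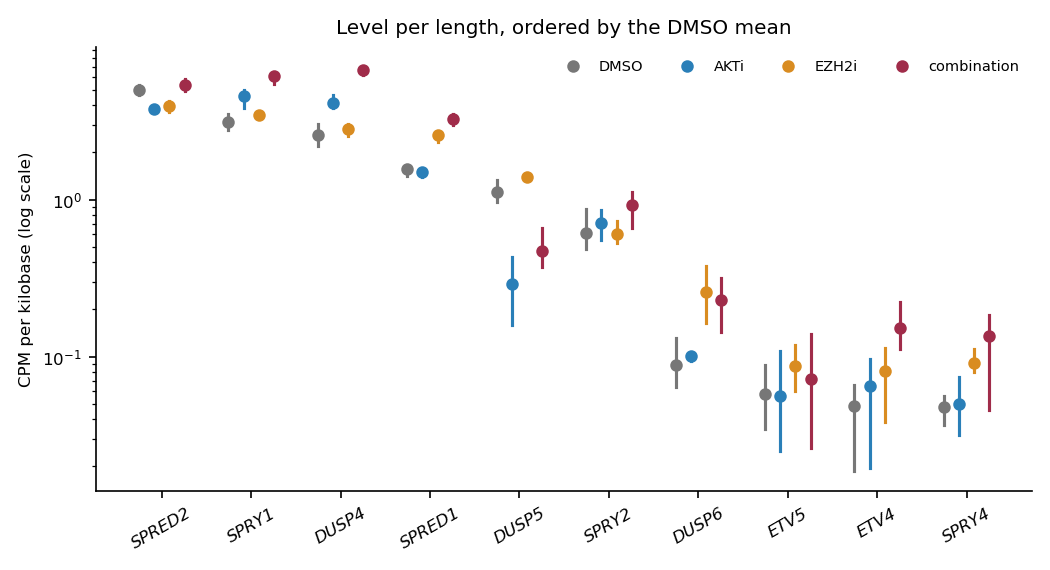
Levels of the 10 genes in CPM per kilobase of gene length on a log axis, ordered by the DMSO mean. Points are means of 3 libraries in each arm and lines run from the lowest to the highest library. SPRED2, SPRY1, DUSP4 and SPRED1 lay above 1 in every arm, and DUSP6, ETV5, ETV4 and SPRY4 below 1.

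The combination raised 5 of the 8 tested genes (DUSP4, DUSP6, SPRY1, SPRY4 and SPRED1), lowered DUSP5, and left SPRY2 and SPRED2 short of the threshold. The calls are from the edgeR quasi-likelihood test with Benjamini-Hochberg adjustment over all 16646 genes at 0.05. The 5 higher calls became 3 (DUSP4, SPRY1 and SPRED1) without DMSO replicate C or without combination replicate A. With library size alone or upper-quartile scaling, SPRY2 and SPRED2 were called higher as well. Among all tested genes 38% were called higher and 35.2% lower in this comparison. The median log2 fold change was 1.01 for the 8 genes and 0.06 for all. DUSP6 and SPRY4 had fewer than 10 counts in every DMSO and AKTi library and passed the filter only through libraries with tazemetostat. ETV4 and ETV5, similarly low in DMSO, did not pass. Counts of higher calls and medians that include DUSP6 and SPRY4 can therefore lean upward in the arms with tazemetostat. AKTi alone raised DUSP4 and SPRY1 and lowered DUSP5 and SPRED2, against 20.6% of all genes higher and 21.9% lower. EZH2i alone raised DUSP6 and SPRED1 and lowered SPRED2, against 32.6% higher and 31.5% lower, and with library size alone or upper-quartile scaling this became 4 higher and 0 lower. Member medians were 0.15 for AKTi and 0.23 for EZH2i. The 3 comparisons use the same DMSO libraries and are not independent of each other.

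**Figure D2:**
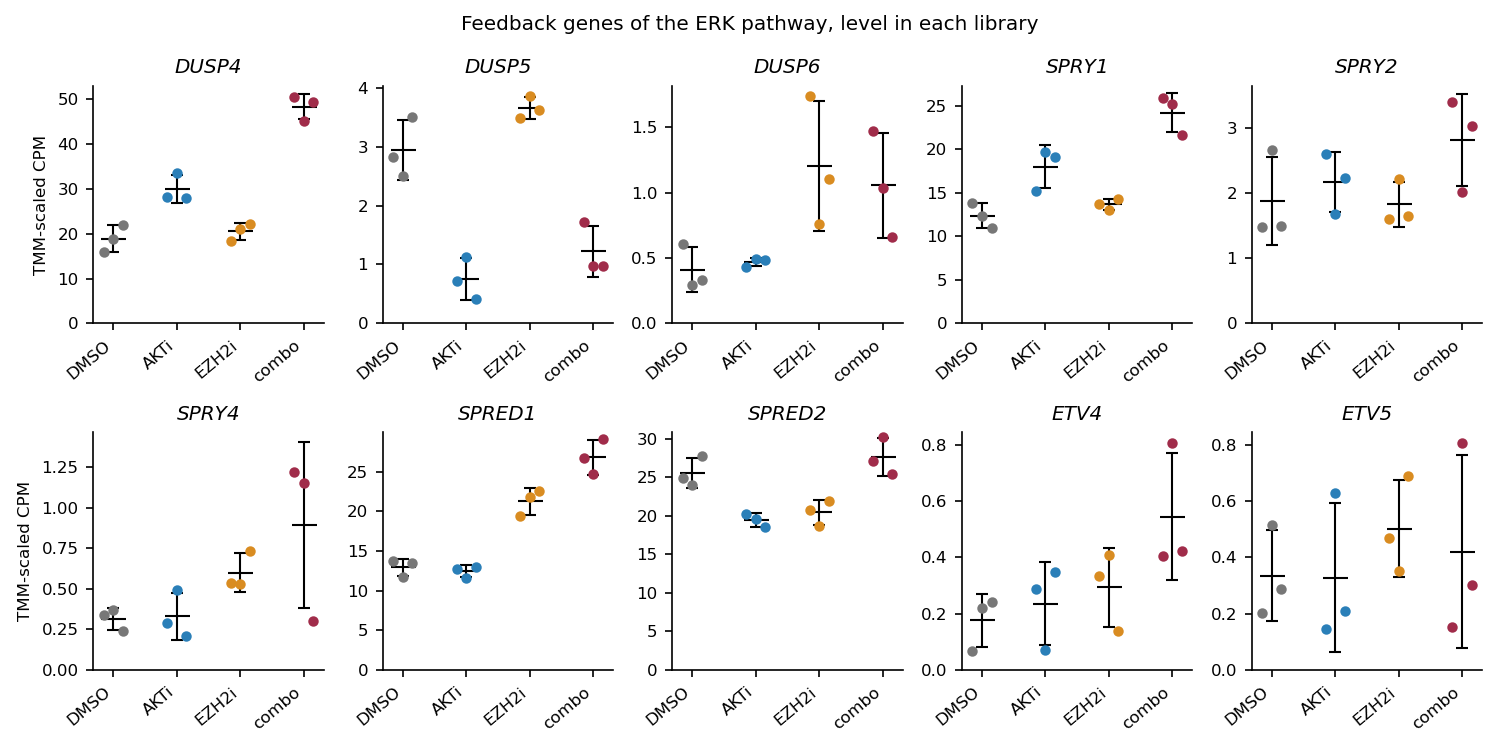
TMM-scaled CPM of each gene in each of the 12 libraries (points), with the mean and SD of the 3 libraries of an arm in black. The axes start at 0 and differ between panels, and DUSP4 and SPRED1 were highest in the 3 combination libraries while DUSP5 was low in all 6 libraries that had AKTi.

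Against the single agents, the combination stood above AKTi for 6 of the 8 tested and below it for 0, where 32.1% of all genes were higher and 32.1% lower. Without AKTi replicate A the 6 became 3 (DUSP4, SPRED1 and SPRED2). The 6 include DUSP6 and SPRY4, which passed the filter only through libraries with tazemetostat. Against EZH2i, 4 were higher and 1 lower, with 21.1% and 25.7% of all genes, a balance that turned from 3506 higher and 4275 lower to 4069 and 3687 with library size alone and 4233 and 3545 with upper-quartile scaling. EZH2i set directly against AKTi gave 3 higher (DUSP5, DUSP6 and SPRED1) and 2 lower (DUSP4 and SPRY1), with 25.4% and 25.1% of all genes. The 3 again include DUSP6 with its filter limit. EZH2i cells had 6 days of tazemetostat beforehand and AKTi cells had vehicle, so agent and length of exposure cannot be told apart here. DUSP5 and SPRED1 were higher with EZH2i by 2.27 ± 0.34 (adjusted p = 5.62e-07, edgeR) and 0.78 ± 0.11 (adjusted p = 2.1e-07) on the log2 scale. DUSP4 and SPRY1 were lower by -0.54 ± 0.10 (adjusted p = 3.45e-05, edgeR) and -0.39 ± 0.12 (adjusted p = 0.00551).

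**Figure D3:**
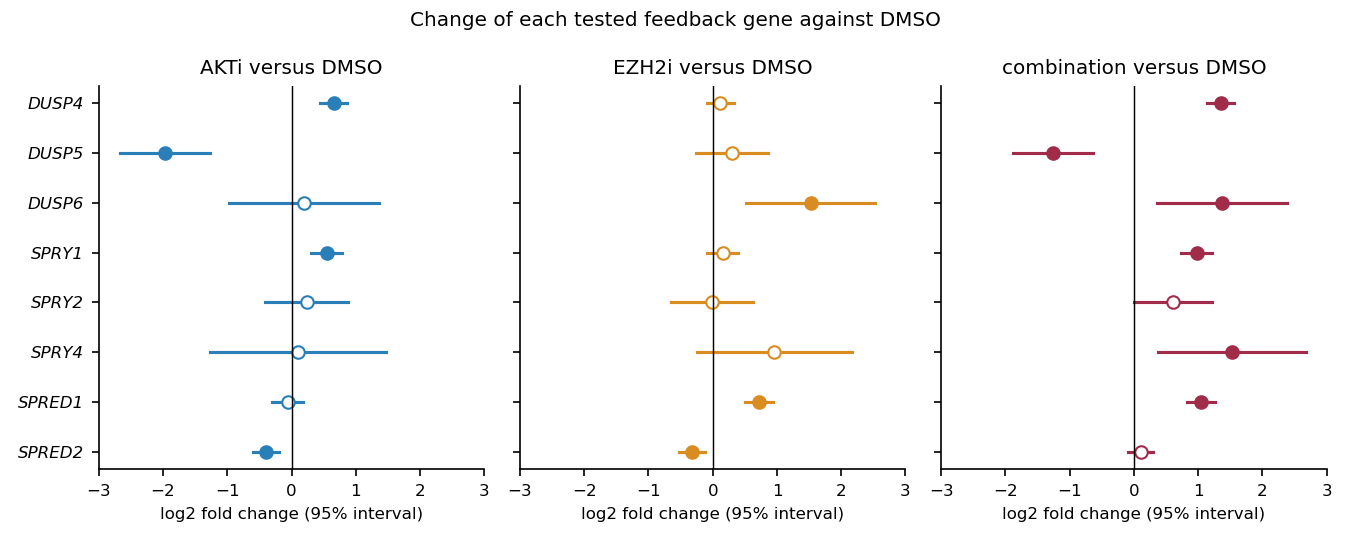
Log2 fold change of the 8 tested genes in each treated arm versus DMSO, with 95% intervals of the fit as lines. Filled points passed an adjusted p-value of 0.05 and open points did not, and DUSP5 is the gene left of 0 in both arms with AKTi.

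DUSP4, a nuclear phosphatase of ERK, JNK and p38 (ENSG00000120875, hg38 chromosome 8, 29333064 to 29350668, minus strand), was the member with the smallest adjusted p-value in the combination. Its level was 15.9, 18.8 and 21.9 CPM in DMSO, 28.2, 33.6 and 28.0 in AKTi, 18.4, 21.1 and 22.1 in EZH2i, and 50.6, 45.2 and 49.3 in the combination. Every AKTi library was above DMSO and every combination library above all others, while EZH2i overlapped DMSO. The log2 fold change versus DMSO was 0.66 ± 0.10 (SE) with AKTi (adjusted p = 2.7e-06, edgeR), 0.12 ± 0.11 with EZH2i (adjusted p = 0.337) and 1.35 ± 0.10 with the combination (adjusted p = 9.91e-15), a 2.55-fold rise. In libraries made from whole plates, more cells that express a gene and more RNA per cell cannot be told apart. The gain from adding AKTi to EZH2i was 1.23 ± 0.10 (adjusted p = 4.12e-13), larger than the gain from AKTi alone by an interaction of 0.57 ± 0.14 (adjusted p = 0.00216).

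DUSP5, a nuclear phosphatase that is selective for ERK (ENSG00000138166, chromosome 10, 110497838 to 110511544, plus strand), moved the other way. It was at 2.83, 2.51 and 3.50 CPM in DMSO, 0.723, 1.12 and 0.417 in AKTi, 3.48, 3.86 and 3.63 in EZH2i, and 1.72, 0.980 and 0.967 in the combination. The 6 libraries with AKTi were all below the 6 without it. AKTi lowered DUSP5 3.92-fold (log2 -1.97 ± 0.35, adjusted p = 1.31e-05, edgeR) and the combination 2.39-fold (log2 -1.26 ± 0.31, adjusted p = 4.27e-04). The AKTi libraries had only 10, 16 and 6 counts, so the size of the 3.92-fold change is uncertain. The AKTi call held under all 18 alternatives, with log2 values from -2.40 to -1.70. EZH2i gave 0.30 ± 0.28 on the log2 scale (adjusted p = 0.352). DUSP5 was also lower in the combination than in EZH2i, by -1.56 ± 0.30 (adjusted p = 4.62e-05). The combination versus AKTi difference of 0.71 ± 0.38 did not pass (adjusted p = 0.0998), though it did with library size alone and without AKTi replicate B. The interaction was 0.41, with a 95% interval from -0.54 to 1.36.

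DUSP6, a cytoplasmic phosphatase that is selective for ERK (ENSG00000139318, chromosome 12, 89347232 to 89353271, minus strand), was counted at 9, 4 and 7 reads in DMSO, 6, 7 and 7 in AKTi, 26, 13 and 24 in EZH2i, and 29, 18 and 11 in the combination. Scaled to depth, every EZH2i and every combination library was above every DMSO and AKTi library, the lowest of them at 0.664 CPM and the highest DMSO library at 0.606. The test called DUSP6 2.87-fold higher with EZH2i (log2 1.52 ± 0.50, adjusted p = 0.00754, edgeR). It was called 2.58-fold higher with the combination (log2 1.37 ± 0.50, adjusted p = 0.0142, edgeR), while AKTi gave 0.20 ± 0.58 (adjusted p = 0.813). DUSP6 passed the filter on low counts only through libraries with tazemetostat, so values of the tazemetostat arms against DMSO or AKTi can lean upward. The combination differed from EZH2i by -0.15, with a 95% interval from -1.03 to 0.72. At these counts single libraries decide the calls: the EZH2i call was lost without EZH2i replicate A (log2 1.16, adjusted p = 0.0741), and the combination call without DMSO replicate B, DMSO replicate C or combination replicate A (adjusted p up to 0.107). The calls versus AKTi, 1.17 ± 0.50 for the combination (adjusted p = 0.0401) and 1.32 ± 0.50 for EZH2i (adjusted p = 0.0252), were lost in 10 and 4 of 18 alternatives. For the combination these were DESeq2, the replicate block, a filter of 1 count in total, and leaving out any AKTi replicate, EZH2i replicate A or C, or combination replicate A or B (adjusted p up to 0.212). For EZH2i they were leaving out any AKTi replicate or EZH2i replicate A (adjusted p up to 0.164). An antisense gene, AC024909.2, covers 2257 bases of the DUSP6 locus and had 0 to 1 counts.

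SPRY1, an inhibitor of receptor tyrosine kinase signalling (ENSG00000164056, chromosome 4, 123396795 to 123403760, plus strand), is the gene of the first sequences above. It was at 13.9, 12.3 and 11.0 CPM in DMSO, 15.2, 19.7 and 19.1 in AKTi, 13.7, 13.0 and 14.3 in EZH2i, and 25.9, 25.2 and 21.6 in the combination. As for DUSP4, the AKTi libraries were above DMSO, the EZH2i libraries overlapped DMSO, and the combination was above every other arm. The log2 fold change versus DMSO was 0.55 ± 0.12 with AKTi (adjusted p = 3.07e-04, edgeR), 0.15 ± 0.12 with EZH2i (adjusted p = 0.271) and 0.98 ± 0.12 with the combination (adjusted p = 1.9e-09). Adding AKTi to EZH2i raised SPRY1 by 0.82 ± 0.11 (adjusted p = 1.55e-07). Adding EZH2i to AKTi raised it by 0.43 ± 0.11 (adjusted p = 0.00118), and without AKTi replicate A this was 0.26 (adjusted p = 0.0617). The interaction of 0.27 ± 0.17 did not pass (adjusted p = 0.233).

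SPRY2, the Sprouty best known for binding CBL and GRB2 (ENSG00000136158, chromosome 13, 80335976 to 80340951, minus strand), passed in none of the 7 comparisons. Its libraries were at 1.48, 2.66 and 1.49 CPM in DMSO, 2.60, 1.68 and 2.23 in AKTi, 1.61, 2.22 and 1.65 in EZH2i, and 3.40, 2.02 and 3.02 in the combination. All arms overlapped. The combination versus DMSO gave 0.61 ± 0.30 on the log2 scale (adjusted p = 0.0662, edgeR), with a 95% interval up to 1.22, and 5 of 19 alternatives took it past the threshold, among them leaving out DMSO replicate B and leaving out combination replicate B. Against EZH2i the value was 0.62 ± 0.30 (adjusted p = 0.0829), which passed without combination replicate B and with at least 10 counts in every library.

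SPRY4, another Sprouty (ENSG00000187678, chromosome 5, 142310427 to 142326455, minus strand), was counted at 5, 5 and 5 reads in DMSO, 4, 7 and 3 in AKTi, 8, 9 and 16 in EZH2i, and 24, 20 and 5 in the combination. Combination replicates A and B were at 1.22 and 1.15 CPM and replicate C at 0.302, inside the DMSO range of 0.240 to 0.369. SPRY4 passed the filter on low counts only through libraries with tazemetostat, so values of the tazemetostat arms against DMSO or AKTi can lean upward. The test called SPRY4 higher in the combination than in DMSO (log2 1.53 ± 0.57, adjusted p = 0.0164, edgeR) and than in AKTi (1.43 ± 0.58, adjusted p = 0.0299). The first call was lost without DMSO replicate C, combination replicate A or combination replicate B (adjusted p up to 0.102), and the second with a filter of 1 count in total or without AKTi replicate A or C or combination replicate A or B (adjusted p up to 0.15). EZH2i gave 0.96 ± 0.60 (adjusted p = 0.16), although its 3 libraries were all above DMSO. SPRY4-AS1, on the opposite strand, had 0 to 2 counts.

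SPRED1, which brings neurofibromin to the membrane to restrain RAS (ENSG00000166068, chromosome 15, 38252326 to 38357249, plus strand), followed EZH2i. It was at 13.7, 11.7 and 13.4 CPM in DMSO, 12.7, 11.6 and 13.0 in AKTi, 19.4, 21.9 and 22.5 in EZH2i, and 26.7, 24.7 and 29.1 in the combination. AKTi overlapped DMSO, EZH2i lay above both, and the combination above EZH2i. EZH2i raised SPRED1 1.64-fold (log2 0.71 ± 0.11, adjusted p = 3.85e-07, edgeR) and the combination 2.07-fold (log2 1.05 ± 0.11, adjusted p = 4.27e-11), while AKTi gave -0.06 ± 0.12 (adjusted p = 0.705). The combination exceeded AKTi by 1.11 ± 0.11 (adjusted p = 2.7e-11) and EZH2i by 0.33 ± 0.10 (adjusted p = 0.00632). The last of these was lost without EZH2i replicate A or combination replicate C (adjusted p up to 0.0747). The interaction of 0.39 ± 0.15 missed the threshold (adjusted p = 0.0507) and passed in 7 of 18 alternatives, over which the adjusted p ran from 0.023 to 0.162.

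SPRED2, the relative of SPRED1 with the same partner (ENSG00000198369, chromosome 2, 65310851 to 65432637, minus strand), fell with each agent alone and did not differ from DMSO past the threshold with both. It was at 24.9, 24.0 and 27.8 CPM in DMSO, 20.3, 19.6 and 18.5 in AKTi, 20.8, 18.7 and 21.9 in EZH2i, and 27.1, 30.2 and 25.4 in the combination. All 6 single-agent libraries lay below all 6 libraries of DMSO and the combination, which overlapped each other. The log2 fold change versus DMSO was -0.40 ± 0.10 with AKTi (adjusted p = 0.00126, edgeR), -0.32 ± 0.10 with EZH2i (adjusted p = 0.00401) and 0.10 ± 0.09 with the combination (adjusted p = 0.322). With library size alone or upper-quartile scaling the EZH2i call was lost (adjusted p up to 0.109) and the combination was called higher (log2 up to 0.30). The combination exceeded AKTi by 0.50 ± 0.10 (adjusted p = 3.17e-05) and EZH2i by 0.43 ± 0.10 (adjusted p = 3.28e-04).

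ETV4 and ETV5, PEA3-class ETS transcription factors, had too few reads to test. ETV4 (ENSG00000175832, chromosome 17, 43527844 to 43579620, minus strand) was counted at 1, 3 and 5 reads in DMSO, 4, 1 and 5 in AKTi, 5, 7 and 3 in EZH2i, and 8, 14 and 7 in the combination. The combination libraries were above the DMSO libraries in CPM, without a test. The span of ETV4 lies within that of DHX8 on the opposite strand over all its 51777 bases, and DHX8 had 878 to 1811 counts. Whether counting used the strand is not given in the sources used here, so the few ETV4 reads cannot be told from reads of its partner. ETV5 (ENSG00000244405, chromosome 3, 186046308 to 186110318, minus strand) was counted at 3, 7 and 6 reads in DMSO, 2, 9 and 3 in AKTi, 7, 6 and 15 in EZH2i, and 3, 14 and 5 in the combination. All ETV5 arms overlapped, without a test.

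The interaction asks whether the combination differed from the sum of the single-agent log2 changes. It was called positive for SPRED2 (0.83 ± 0.14, adjusted p = 1.42e-05, edgeR) and DUSP4 (0.57 ± 0.14, adjusted p = 0.00216) and negative for 0 of the 8 genes. Among all tested genes 10.7% were called positive and 17.5% negative. The member median was 0.40 and the median of all genes -0.05, a description with no test. The 0.40 includes DUSP6 and SPRY4, which passed the filter only through libraries with tazemetostat. For SPRED2 each single agent lay below DMSO and the combination did not, and for DUSP4 the combination rose beyond the sum. Both calls held under all 18 alternatives. The interactions of DUSP6 and SPRY4 had 95% intervals of -1.81 to 1.10 and -1.27 to 2.21, too wide to tell a sum from a departure.

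**Figure D4:**
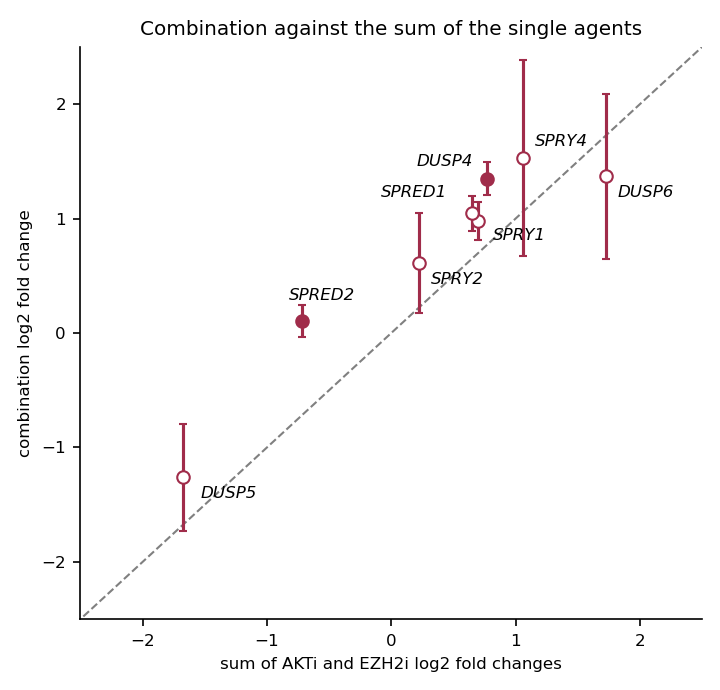
Combination log2 fold change against the sum of the AKTi and EZH2i log2 fold changes, each versus DMSO, for the 8 tested genes. The dashed line marks equality, bars are 1 SE of the interaction, filled points passed 0.05 after adjustment, and every point but DUSP6 stands above the line, the filled SPRED2 and DUSP4 among them.

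Profiles of the 8 genes over the 3 treated arms (log2 CPM with a pseudocount of 0.5, minus DMSO) were compared by Euclidean distance. The nearest pairs were DUSP6 and SPRED1 (0.360), SPRY4 and SPRED1 (0.428) and DUSP4 and SPRY1 (0.429). The order of these pairs depends on the pseudocount, which shrinks the profiles of DUSP6 and SPRY4. Their combination values were 0.75 and 0.69 with it, and 1.37 and 1.53 in the edgeR fit. The farthest pair was DUSP4 and DUSP5 (3.20), both nuclear phosphatases. Over all 16646 genes, the profiles nearest to DUSP6 were those of MYEF2, APOL2 and ENO2 (distances of 0.0411 to 0.0533), and the pseudocount shrinks the profile of a gene as low as DUSP6.

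Other genes of the pathway were taken from lists by role. Among 7 other dual-specificity MAP kinase phosphatases, the combination raised 3 and lowered 3, counts near the 38% higher and 35.2% lower of all tested genes. DUSP1, an immediate early gene, rose from 11.8 ± 0.560 to 32.8 ± 3.76 CPM (log2 1.47, adjusted p = 5.67e-15, edgeR), and on the log2 scale DUSP8 rose by 0.88 and DUSP16 by 0.38. DUSP9 fell from 23.7 ± 2.27 to 3.92 ± 0.421 CPM (log2 -2.60, adjusted p = 1.52e-18), DUSP2 changed by -2.06 and DUSP7, a cytoplasmic ERK phosphatase like DUSP6, by -1.34. The remaining one, DUSP10, was not called.

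Of 17 tested inhibitors and adaptors (18 listed), 10 rose and 5 fell in the combination, where 38% of all tested genes were called higher and 35.2% lower. IL17RD (Sef), an inhibitor of FGF and ERK signalling, rose from 3.19 ± 0.108 to 31.1 ± 1.41 CPM (log2 3.28, adjusted p = 2.45e-23, edgeR). On the log2 scale the phosphatase PTPRR rose by 2.60 and the ubiquitin ligase CBLB by 1.77, while RASA3, a RAS GTPase activator, changed by -1.42, PEBP1, the RAF kinase inhibitor protein, by -0.71 and PTPN3 by -0.68. In the RAS to ERK cascade itself 11 of 22 genes rose and 8 fell, near those shares of all genes, and this became 13 and 3 with library size alone or upper-quartile scaling. On the log2 scale the adaptor GAB1 rose by 2.98 and the scaffold SHOC2 by 1.51, and HRAS changed by -1.27, MAP2K1 (MEK1) by -0.71 and PTPN11 (SHP2) by -0.57. KSR1, a scaffold for RAF and MEK, was called higher but had 0, 0 and 6 counts in DMSO and 25, 30 and 14 in the combination, so no fold is given.

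Upstream, 6 of 12 tested receptor tyrosine kinases (16 listed) rose in the combination and 1 fell, beside the 38% higher and 35.2% lower of all tested genes. FGFR2 went from 1.82 ± 0.627 to 17 ± 0.204 CPM (log2 3.24, adjusted p = 5.46e-17, edgeR). IGF1R rose 3.93-fold and ERBB2 2.83-fold, and FGFR4 fell 1.77-fold. Downstream, 9 of 15 kinases, ETS transcription factors and related regulators rose and 3 fell, beside the same 38% and 35.2% of all tested genes. Log2 fold changes were 1.13 for RPS6KA2, 1.00 for ELK4, -1.00 for RPS6KA4, -0.91 for ELK1 and -0.49 for RPS6KA1. ETS1 was called higher and had 0, 0 and 4 counts in DMSO and 25, 29 and 23 in the combination. Of 22 tested ERK-responsive genes outside the feedback set (31 listed), 9 rose and 6 fell, near the shares of all genes. On the log2 scale TGFA, an EGFR ligand, rose by 2.63, KLF4 by 2.27 and ATF3 by 2.22, while EPHA2 changed by -1.72, VGF by -1.23 and SRF by -0.63. The medians of these groups ran from -0.17 for the other phosphatases to 0.60 for the receptors, beside 1.01 for the feedback genes and 0.06 for all genes, a description with no test. The 1.01 includes DUSP6 and SPRY4, which passed the filter only through libraries with tazemetostat.

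**Figure D5:**
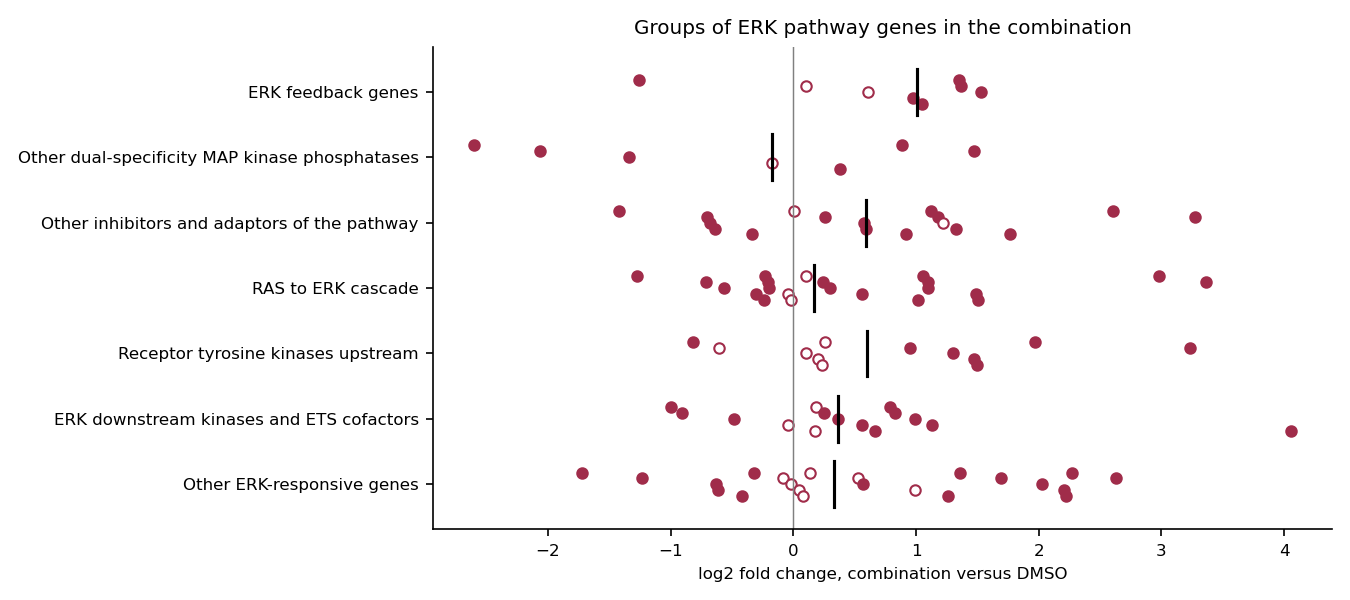
Log2 fold change in the combination versus DMSO of the tested genes in each group, with filled points past an adjusted p-value of 0.05 and a black bar at the group median. The feedback genes have their bar at 1.01 and DUSP5 as the only point left of 0. The group labelled downstream kinases and ETS cofactors includes ETS transcription factors. Its far right point is 1 of these, ETS1, whose fitted value rests on 4 DMSO counts.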

How the data were processed

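The authors aligned polyA RNA-seq reads of 12 C4.2B libraries to hg38 with STAR and counted genes with HTSeq (per the labels; versions and strand setting not given in the sources used here). Deposited counts are whole numbers per gene. The deposited normalized values (signal) are the authors' DESeq2-normalized counts, equal to the count over 1 factor per library within 0.01 for 56994 of 56994 names, and served only to check the order of levels. Gene lengths came with the counts. In R 4.3.3, edgeR 4.0.16 filtered genes (filterByExpr, minimum count 10, minimum total 15), scaled by TMM and fitted the quasi-likelihood test with 1 mean per arm over 12 libraries. The 7 comparisons were contrasts of these means, and the interaction was combination minus AKTi minus EZH2i plus DMSO. P-values were adjusted by Benjamini-Hochberg over 16646 genes at 0.05. The paper used DESeq2, which is an alternative here (1.42.0), with library size alone, upper-quartile scaling, 2 other count filters, fits to the 6 libraries of a pair of arms, a block for the replicate letter, and leave-one-out. Intervals are 95% and from the fit.

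The 10 genes and the other lists, written from general knowledge, were chosen with earlier results of these data known. Named genes are all 10 members and, from each other pathway list, the 3 highest and 3 lowest called log2 fold changes in the combination and up to 3 called interactions of largest size. The 12 libraries differed from their replicates by more than sampling noise. Totals of 14133755 to 22276417 limit genes under about 10 counts, here DUSP6, SPRY4, ETV4 and ETV5, and DUSP5 in AKTi replicate C. The test was checked on simulated data. Promoter windows are RefSeq's, searched in Python 3.11.15, and figures were drawn with matplotlib 3.10.9.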

Additional observations from a re-analysis of the deposited data

Results flagged for a closer look

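The effect of AKTi differed with and without EZH2i (the interaction, log2 scale, edgeR with adjusted p under 0.05) for 2 of the feedback genes. DUSP4 had 0.57 (adjusted p = 0.00216) and SPRED2 0.83 (adjusted p = 1.42e-05). Among all tested genes 10.7% had a positive and 17.5% a negative call. In the other pathway lists, positive interactions were named for ATF3 (2.03), FGFR2 (1.98), MET (1.36), SHOC2 (1.14), ERRFI1 (1.03), HBEGF (0.99), RASA2 (0.74), SOS1 (0.66), BRAF (0.50) and RPS6KA3 (0.41). Negative ones were named for ELK3 (-1.12), IL17RD (-0.76), FGFR4 (-0.74), CIC (-0.65), MKNK2 (-0.56) and DUSP2 (-0.45). At most 3 calls per list are named, those of largest size, so the balance of the named genes does not describe the lists. The adjusted p-values of these 16 genes ran from 3.47e-16 for ATF3 to 0.0468 for FGFR4. The calls of MET (lost without DMSO replicate A or C, AKTi replicate C, EZH2i replicate B or combination replicate A, adjusted p up to 0.0945), FGFR4 (lost without DMSO replicate B, AKTi replicate A or C, any EZH2i replicate but B, or combination replicate A or B, adjusted p up to 0.164) and HBEGF (lost without DMSO replicate B, adjusted p = 0.0519) each rest on single libraries. Groups of 3 libraries were not tested for single outlying samples.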

How the results depend on the processing

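Of 56 member results (8 genes in 7 comparisons), 31 were called, 22 of these stayed called under every alternative that could test them and 0 changed sign. Of the 25 not called, 7 passed in some alternative and 4 changed sign in some. With at least 10 counts in every library, which leaves 5 of the genes, 3 were called for EZH2i versus AKTi in place of 5. Leaving out each library in turn gave 3 to 6 called for the combination versus AKTi, with 3 without AKTi replicate A, and 4 to 6 for the combination versus DMSO, with 4 without DMSO replicate C or combination replicate A. SPRY2 in EZH2i versus DMSO turned from -0.01 to 0.13 with library size alone, 0.11 with upper-quartile scaling and 0.027 with at least 10 counts, and ran from -0.18 to 0.24 over the libraries left out. The same ranges were -0.33 to 0.31 for SPRY4 in AKTi versus DMSO, -0.48 to 0.15 for DUSP6 in the combination versus EZH2i and -0.0078 to 0.14 for SPRED2 in EZH2i versus AKTi. None of these 4 was called. DUSP4 and SPRY1 were called higher in EZH2i versus DMSO under library size alone and upper-quartile scaling.

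Libraries of the same letter did not deviate together (correlations -0.07 to 0.09, 0 of 18 pairs over 0.1), so the letters were not taken as pairs. A replicate block gave 7044, 10633, 12146, 10621, 7702, 8320 and 4627 genes called in the 7 comparisons, in place of 7073, 10670, 12186, 10687, 7781, 8396 and 4688, and ended 1 member call, DUSP6 in the combination versus AKTi. Among the other lists, 3 of 24 counts moved by over 1.5 times in some alternative, and 3 of 50 named values lost their call. Depth limits DUSP6, SPRY4, ETV4 and ETV5, and DUSP5 in the AKTi arm.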
